A study of Mus musculus with 24 samples.

Results

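The livers examined here were taken 192 h after an injection of lung carcinoma cells, the latest of the 3 times of the study. The members were the 8 arrays whose labels give 192 h, of 24 arrays in the whole series, and they form 4 biological pairs with 2 dye-swapped arrays each. Male C57Bl/6 mice 8 weeks of age were injected under the skin with 1e+06 cells of the LL/2(LLC1) line, suspended in 300 µl of PBS (phosphate-buffered saline), or with 300 µl of PBS alone, and liver RNA of both was hybridised together on oligonucleotide arrays printed in house. The line derives from the Lewis lung carcinoma of a C57BL mouse, so that host and tumor share their strain background. The tumor grows at the injection site and the liver is a distant organ. The labels do not say whether a sample is a single animal. P-values then measure the spread between samples, estimated over all 3 times together, which may be partly technical.

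The liver of an animal with a growing tumor can respond to signals that reach it through the blood. Hepatocytes make most plasma proteins, among them the acute phase proteins, whose genes are switched by cytokines of the interleukin-6 and interleukin-1 families during inflammation or injury. The same cells oxidise fatty acids, break down amino acids, make bile acids and clear drugs, and these programs are commonly lowered while an acute phase response runs. Kupffer cells, the resident macrophages, are among the cells that pass such signals on within the organ.

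The values are log2 ratios of tumor over PBS from the authors' deposited table, averaged over both dye orientations of a pair. A positive value means more signal from the tumor-bearing mouse. The direction is likely rather than settled: the deposited values match the scans only if channel A holds Cy3, which the files do not state, and if that is wrong every sign below turns. Arrays at 192 h held values for 1608 to 8171 of 10080 spots. Spots with a value in both orientations numbered 1237, 3485, 3578 and 2752 in pairs 1 to 4, so pair 1 was the sparsest. A probe was tested where at least 3 of the 4 pairs had both orientations, which left 2030 probes for 1830 genes, and a missing pair was left out of that probe's mean. Fewer cells of a type and less RNA per cell cannot be told apart in these bulk samples.

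The dye weighed heavily in single arrays. Across the tested probes, the log2 ratios of the 2 orientations of a pair correlated at 0.61, -0.22, -0.38 and 0.12 in pairs 1 to 4. Orientations agreed best in pair 1, whose pair means also had the widest spread (SD 0.30, against 0.13 to 0.20 in the other pairs). After the mean dye difference of the 18 h and 72 h arrays was taken off each array, the correlations were 0.69, 0.26, -0.06 and 0.44. The pairs also resembled each other little: pair means correlated at -0.40 between pairs 1 and 2 and at -0.42 between pairs 3 and 4, and the other 4 combinations ran from -0.06 to 0.10. These are correlations across probes, which are not independent replicates.

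**Figure D1:**
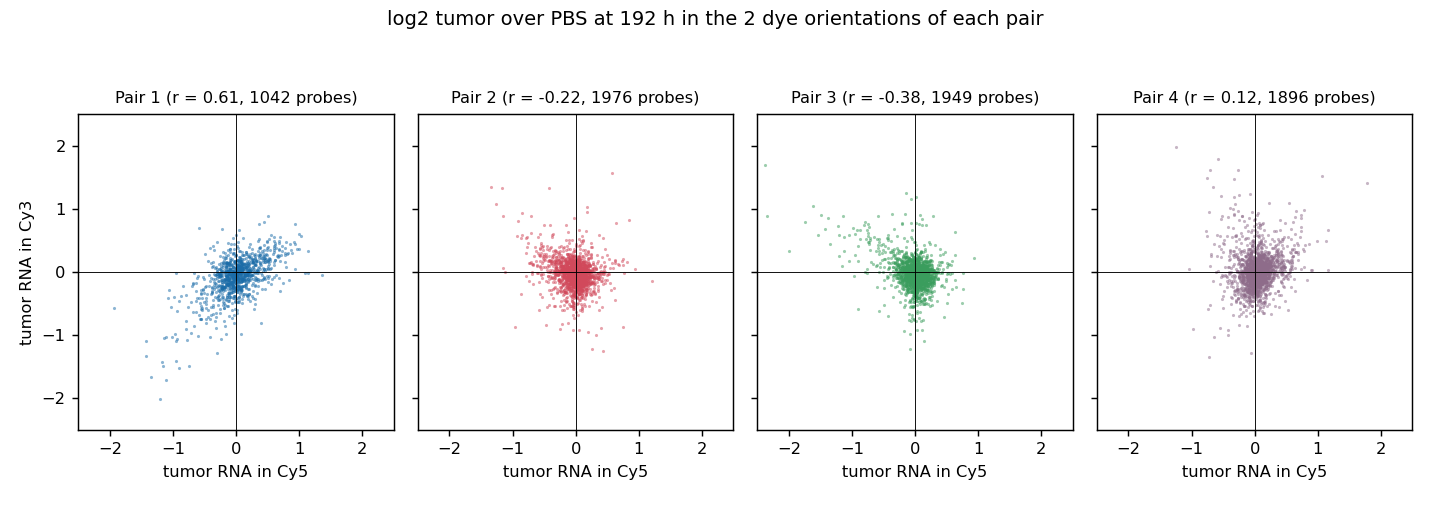
Each point is a tested probe, with the log2 ratio of tumor over PBS from the array with tumor RNA in Cy5 on the horizontal axis and from the dye-swapped array with tumor RNA in Cy3 on the vertical axis, for the 4 pairs at 192 h. Points of pair 1 lie along a rising diagonal (r = 0.61), while those of pair 3 lean along a falling one (r = -0.38).

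The comparison asked which liver transcripts differed between tumor-bearing and PBS mice at 192 h. No probe passed limma's test after Benjamini-Hochberg adjustment: 0 of 2030 probes (0%) had an adjusted p under 0.05, and the smallest adjusted p was 0.999. With 4 pairs a test that flips the signs of single pairs cannot give a two-sided p below 0.125. At an unadjusted p under 0.05 there were 61 probes, fewer than the 101.5 that a threshold of 0.05 gives over 2030 probes without any difference. Of these, 21 had a positive ratio (1.03% of the tested probes) and 40 a negative ratio (1.97%). A positive value in every measured pair was found for 117 probes (5.76%) and a negative value in every measured pair for 165 probes (8.13%). Random signs alone would give 1 sign throughout, positive or negative, for a share of 0.125 of the 773 probes with 4 pairs. For the 1257 probes with 3 pairs that share is larger. A common sign in every pair is therefore no sign of a difference by itself. Means over the pairs lay between -0.46 and 0.47, with a median standard error (SE) of 0.06, and 47.4% of the tested probes had a positive mean, the share against which the counts of list members below can be read. Where a pair was left out of a mean but had 1 array with a value, that array had the opposite sign to the mean in 334 of 607 cases, and in 43 of 72 for the named genes and list members. All genes below are therefore described by their values in the pairs, and none of them is a call. Every adjusted p of a named gene in this comparison was 0.999 or above, so only unadjusted values are printed.

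Among hepatocyte markers, the arrays carried probes for Hpd, Pck1, Hnf4a and Ahsg. Their background-corrected intensity was 2.61 to 17.6 times the local background, with a median of 14.1, against a median of 0.978 over all probes. Hpd and Ahsg, at 17.1 and 17.6, had values on only 5 and 3 of the 8 arrays and were not tested. Adipose, pancreas and cell cycle markers had median signals of 0.662, 1.05 and 0.730 times background.

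Among the genes positive in every measured pair, the smallest p belonged to Fga, which encodes the alpha chain of fibrinogen, the plasma protein that forms clots and increases in the acute phase response. Its log2 ratio was 0.01, 0.71, 0.40 and 0.60 in pairs 1 to 4, with a mean of 0.43 ± 0.12 (SE, n = 4 pairs). Pair 1 lay near 0 and the other 3 pairs lay clearly above 0. The single arrays, with tumor RNA in Cy5 and then in Cy3, gave -0.02 and 0.05 in pair 1, 0.64 and 0.77 in pair 2, 0.48 and 0.32 in pair 3, and 1.16 and 0.03 in pair 4. Both orientations thus agreed in pairs 2 and 3, and in pair 4 the difference came from 1 array. Recomputed from the scans with background subtraction and loess, Fga gave -0.59, 0.65, 0.65 and 0.92, so pair 1 turned negative there. Limma's unadjusted p was 0.00363.

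Fga led a list of positive acute phase proteins that was split in direction. Of 10 tested members, 5 had a positive and 5 a negative mean, with a median of 0.05, against a median of -0.004 over all tested probes, and only Fga had an unadjusted p under 0.05. The list medians in pairs 1 to 4 were -0.10, 0.00, 0.12 and 0.37. Pair 4 stood apart, with all 7 of its measured members positive. Without pair 1 the list median was 0.14. Lrg1, a leucine-rich plasma glycoprotein induced in inflammation, had the highest mean of all, 0.47 ± 0.24 (SE, n = 4 pairs), from values of -0.07, 0.53, -0.19 and 1.59. Its mean rested on pair 4, where both orientations were high (1.77 and 1.41), and the other pairs had orientations of opposite sign.

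Cp, the copper-binding ferroxidase ceruloplasmin, was at -0.08, 0.21 and 0.46 in pairs 2 to 4. Itih3, a heavy chain of the inter-alpha-trypsin inhibitor family that stabilises hyaluronan, was at 0.11, 0.17 and 0.18 in pairs 1 to 3, a small but even difference. Its mean was 0.15 ± 0.14 (SE of limma's fit, n = 3 pairs), while the SD of these 3 values was 0.04. In pair 4, left out of that mean, the single measured array (tumor RNA in Cy3) gave 1.38. The scans gave larger values for Itih3, 0.66, 0.60, 0.45 and 1.14, all 4 positive. Members on the other side were the protease inhibitor Serpina3n (-0.10, -0.05 and -0.54 in pairs 1 to 3) and Crp, C-reactive protein, which is a weak acute phase protein in the mouse. Serpina3n had a single array in pair 4, again with tumor RNA in Cy3, and it read 1.99, opposite to its mean of -0.23. Crp was at -0.79, -0.08, 0.12 and 0.19, with pair 1 alone far below 0. The list median was thus highest in pair 4 and lowest in pair 1, while single members differed: Fga was highest in pair 2, and Lrg1 and Serpina3n were lowest in pair 3. A separate list of negative acute phase proteins had 2 tested members, both with a positive mean (median 0.08). They were Serpinc1 (0.13) and Serpina6 (0.03), and the sign of that median turned under 4 of 21 alternatives.

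**Figure D2:**
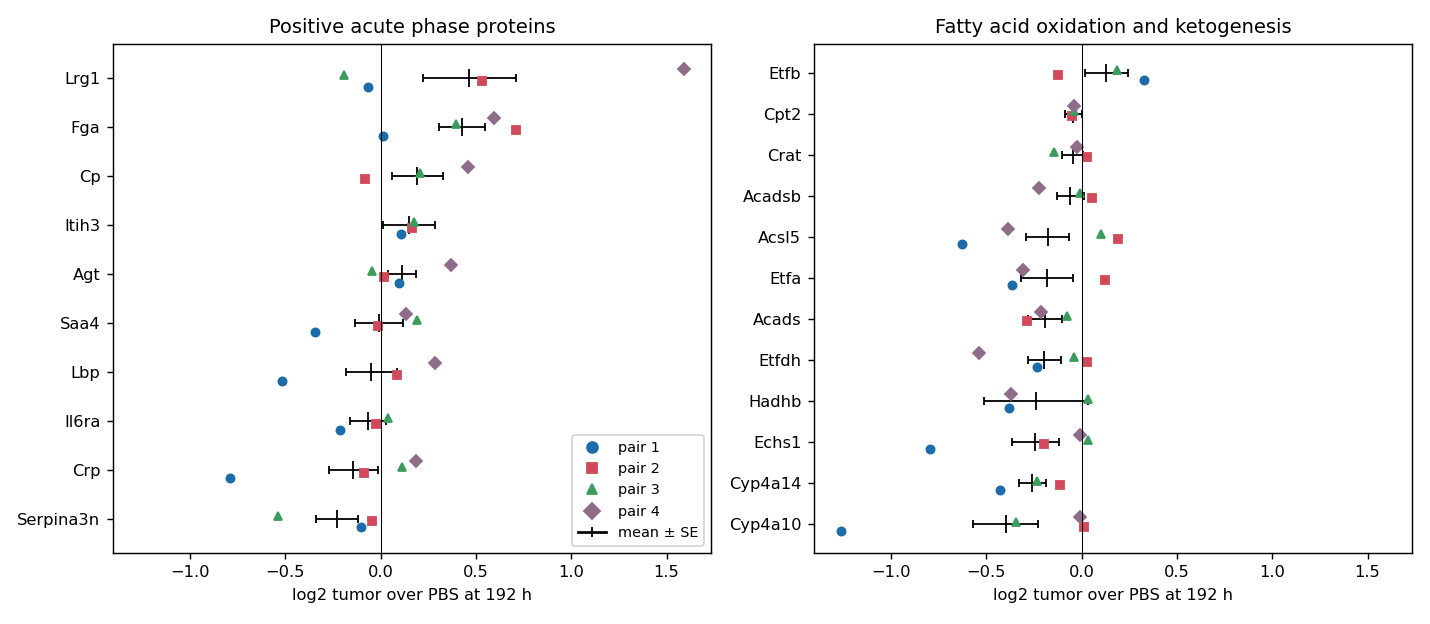
Log2 ratios of tumor over PBS at 192 h (horizontal axis) for the tested members of 2 gene lists, with a symbol for each pair and a black mark for the mean ± SE of limma's fit. Acute phase members (left) fall on both sides of 0, with Lrg1 at 1.59 in pair 4, and 11 of 12 fatty acid oxidation members (right) have a negative mean, with Cyp4a10 at -1.26 in pair 1.

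Promoters of Fga, Lrg1 and Itih3, chosen after their values were seen from the acute phase genes with a positive mean, are given from RefSeq (GRCm38.p6), from 250 bases before to 50 after the start of the gene, on the gene's own strand. They are shown because acute phase genes are classically read through STAT3 sites and a short interleukin-6 response element. Capitals mark matches on either strand to TTCNNNGAA, the consensus of STAT factors, and to CTGGGA, the core of that element. The sequences follow.
Fga, chr3:83025903-83026202, plus strand: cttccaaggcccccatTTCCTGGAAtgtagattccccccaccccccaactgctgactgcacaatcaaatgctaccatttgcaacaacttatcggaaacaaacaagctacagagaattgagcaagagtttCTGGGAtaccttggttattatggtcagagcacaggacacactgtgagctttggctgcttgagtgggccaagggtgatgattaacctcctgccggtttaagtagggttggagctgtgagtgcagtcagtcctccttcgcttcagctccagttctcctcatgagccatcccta
Lrg1, chr17:56121897-56122196, minus strand: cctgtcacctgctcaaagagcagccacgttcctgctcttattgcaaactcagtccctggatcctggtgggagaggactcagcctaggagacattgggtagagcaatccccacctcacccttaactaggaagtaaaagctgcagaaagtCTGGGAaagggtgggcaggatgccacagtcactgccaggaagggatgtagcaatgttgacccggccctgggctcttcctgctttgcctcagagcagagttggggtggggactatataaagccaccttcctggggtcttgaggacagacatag
Itih3, chr14:30923538-30923837, minus strand: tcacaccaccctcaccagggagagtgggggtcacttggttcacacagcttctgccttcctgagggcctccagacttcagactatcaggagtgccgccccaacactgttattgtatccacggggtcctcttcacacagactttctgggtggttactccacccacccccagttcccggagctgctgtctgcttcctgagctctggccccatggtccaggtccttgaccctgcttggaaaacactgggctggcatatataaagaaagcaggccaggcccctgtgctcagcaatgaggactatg

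The Fga window held 1 match to each motif, the Lrg1 window 1 match to CTGGGA, and the Itih3 window no match to either. Among 27025 genes with a promoter in the table, 8.47% held TTCNNNGAA and 31.5% held CTGGGA, so the shorter motif is common. The matches do not overlap each other, and a match is a description of the letters in this window.

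Clotting and complement genes were divided like the positive acute phase list. Of 10 tested genes of coagulation and fibrinolysis 5 were positive and 5 negative (median -0.004). Without pair 1 that median was 0.09, and its sign turned under 9 of 21 alternatives. Kng1, kininogen, the precursor of bradykinin, was positive in all 4 pairs at 0.11, 0.24, 0.06 and 0.37, with a mean of 0.19 ± 0.07 (SE, n = 4 pairs). All 4 pairs lay above 0, and in each the array with tumor RNA in Cy5 read higher than its dye swap (0.52 against -0.03 in pair 2). From the scans the pairs were again all positive, at 0.38, 0.22, 0.27 and 0.80. Serpinc1, antithrombin, the main inhibitor of thrombin, was at 0.10, 0.23 and 0.07 in pairs 1 to 3, with a mean of 0.13 ± 0.05. The scans gave 0.31, 0.01, -0.05 and -0.20 for Serpinc1, a mean of 0.02 with pairs of both signs. Serpinf2, the plasmin inhibitor, had -0.12, 0.33 and 0.38 in pairs 1 to 3. F5, clotting factor V, was at -0.84 in pair 1 and at 0.37, 0.18 and 0.02 in pairs 2 to 4. Serpind1, heparin cofactor II, was likewise low in pair 1 alone (-0.45, against 0.05 to 0.12).

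Of 8 tested complement genes 5 were positive (median 0.04), and 0 had an unadjusted p under 0.05. C4bp, which restrains the classical pathway, had the highest mean (0.12 ± 0.08, SE, n = 4 pairs) from -0.19, 0.12, 0.08 and 0.48, again highest in pair 4. C1ra, a protease of the first complement component, followed at 0.24, 0.03, 0.13 and -0.09. The terminal components Hc (C5) and C9 had means of 0.07 and 0.05. Among the 3 negative members, C1qb, which macrophages make, and Cfi, which degrades C3b, were at -0.05 and -0.04.

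The list with the lowest median among those with at least 5 tested genes was fatty acid oxidation and ketogenesis, the mitochondrial, peroxisomal and microsomal breakdown of fatty acids. Of 12 tested genes 11 had a negative mean, the median was -0.19, and 3 had an unadjusted p under 0.05, all 3 of them negative. The list medians in pairs 1 to 4 were -0.40, 0.01, -0.04 and -0.22. Members were negative in 7 of 8 cases in pair 1 and in 10 of 10 in pair 4, but in 5 of 11 in pair 2. Pairs 1 and 4 thus carried the shift, and without pair 1 the median was -0.08. These were also the pairs with the lowest quality weights in limma, 0.349 and 0.342 against 1.24 and 1.23 for pairs 2 and 3, and the part of quality in the list values was not tested.

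Cyp4a14, a microsomal fatty acid omega-hydroxylase and a classic target of PPARα, was at -0.43, -0.11 and -0.24 in pairs 1 to 3, with a mean of -0.26 ± 0.07 (SE, n = 3 pairs). The Cy5 arrays of those pairs were at -0.68, -0.78 and -0.56 while the Cy3 arrays were at -0.17, 0.55 and 0.08, so the orientations disagreed in sign in pairs 2 and 3. The single array of pair 4 gave 0.16. Its paralog Cyp4a10, which can share sequence with it on an array, was at -1.26, 0.01, -0.34 and -0.01, a mean of -0.40 ± 0.17. Pair 1 gave most of that, with both orientations low (-1.43 and -1.09). Echs1, the enoyl-CoA hydratase of the mitochondrial spiral, was at -0.79, -0.20, 0.03 and -0.01. Hadhb, the thiolase subunit of the trifunctional protein, was at -0.38, 0.03 and -0.37 in pairs 1, 3 and 4. Etfdh, which hands electrons from fatty acid oxidation to the respiratory chain, was at -0.23, 0.03, -0.04 and -0.54. The 1 positive member was Etfb, the beta subunit of the electron transfer flavoprotein (0.33, -0.13 and 0.19 in pairs 1 to 3).

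Lipid synthesis genes also leaned negative. In lipogenesis and triglyceride synthesis 10 of 11 genes had a negative mean (median -0.08; 2 with an unadjusted p under 0.05). The list medians in pairs 1 to 4 were -0.07, -0.04, -0.004 and -0.25. Members were negative in 10 of 11 cases in pair 4, but in 6 of 11 in pair 2 and 5 of 10 in pair 3. Thrsp, a hepatic lipogenic factor that answers to thyroid hormone and carbohydrate, was at 0.06, -0.44, -0.12 and -0.25. Pklr, the liver pyruvate kinase, was at -0.65, -0.05, 0.06 and -0.26. Elovl3, a fatty acid elongase with male-biased hepatic expression, was at -1.03 in pair 4 and between -0.12 and 0.06 in the others. Acly, which supplies cytosolic acetyl-CoA, had opposite values in pairs 1 and 2 (-0.86 and 0.50).

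Cholesterol synthesis and uptake had 5 of 6 genes negative (median -0.07). Idi1, the isopentenyl diphosphate isomerase, was lowest with -1.10, 0.02 and -0.12 in pairs 1 to 3, and Msmo1, a sterol demethylating oxidase, was at -0.29, -0.52 and 0.39 in pairs 1, 3 and 4. The mean of Idi1 rested on pair 1, and its single array of pair 4, left out of the mean, read 0.68. Apolipoproteins and lipid carriers were split, with 3 of 6 negative. Among them Apoa5, which promotes clearance of plasma triglycerides, was at -0.24, -0.08 and -0.07 in pairs 1 to 3, and the intestinal-type fatty acid carrier Fabp2 at -0.71 in pair 4 and near 0 in pairs 1 and 2 (0.03 and -0.06).

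Genes of bile acid synthesis and transport had 7 of 9 negative means and a median of -0.11, which was -0.04 without pair 1 and 0.01 with median centring of the scans. List medians were negative in pairs 1 and 4 (-0.17 and -0.11) and positive in pairs 2 and 3 (0.03 and 0.06). Slc10a1, NTCP, the sodium-dependent carrier that takes bile acids from portal blood into hepatocytes and is lowered in inflammation, was negative in all 4 pairs at -0.44, -0.13, -0.15 and -0.05. Its mean was -0.19 ± 0.07 (SE, n = 4 pairs), and its unadjusted p in limma's fit was 0.0184. Both orientations were negative in pairs 1 and 3, and in pairs 2 and 4 the Cy3 array was positive (0.14 and 0.12). Cyp7b1, the oxysterol 7-alpha-hydroxylase, was at -0.44, 0.12 and -0.34 in pairs 2 to 4, with 0.98 on its single array of pair 1, and Hsd3b7, a step of bile acid ring modification, at -0.83 in pair 4 but 0.29 in pair 3. Abcb11, the bile salt export pump of the canalicular membrane, was near 0 (0.01, 0.03, 0.14 and -0.05).

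Cytochrome P450 genes and their partners had 12 of 14 negative means (median -0.09, and -0.04 without pair 1). An unadjusted p under 0.05 was found for 3 of them, all negative, of which Cyp4a10 and Cyp4a14 are also counted under fatty acid oxidation. List medians were -0.14, -0.01, 0.02 and -0.11 in pairs 1 to 4. Cyp2j5, an arachidonic acid epoxygenase, was at -1.22, -0.01 and -0.06 in pairs 1 to 3, so its mean of -0.43 ± 0.19 came from pair 1, and without that pair it was -0.03. Cyp3a13 was positive at 0.12, 0.01 and 0.39 in pairs 2 to 4. Conjugation and drug transport genes had 10 of 13 negative means (median -0.06; 0 with an unadjusted p under 0.05). Their list medians were -0.23, -0.02, -0.02 and -0.11 in pairs 1 to 4. Gstz1, a glutathione transferase that also works in tyrosine breakdown, was negative in all 4 pairs at -0.58, -0.25, -0.03 and -0.04. Fmo5, a flavin monooxygenase, was at 1.07 in pair 2 against -0.23 to 0.11 elsewhere.

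Amino acid breakdown and the urea cycle had 17 of 22 negative means and a median of -0.08. Its list medians were -0.38, 0.07, 0.04 and -0.15, with 15 of 19 measured members negative in pair 1, 7 of 22 in pair 2 and 16 of 18 in pair 4. The lowest means belonged to Tdo2, which opens the ring of tryptophan (-1.31, -0.06 and 0.04 in pairs 1 to 3), Cdo1, the cysteine dioxygenase (-1.38, 0.29, -0.42 and -0.14), and Ahcy, which hydrolyses S-adenosylhomocysteine (-0.999, -0.11, -0.06 and -0.12). Ahcy was negative in all 4 pairs, yet 3 of the values lay within 0.12 of 0. Oat, the ornithine aminotransferase, was at -0.92, 0.12, -0.16 and -0.20. Without pair 1 the list median was -0.02. Haao, which continues tryptophan breakdown toward NAD, had 2 tested probes. The dimmer was negative in every pair (-0.25, -0.05, -0.06 and -0.25) and the brighter in 2 of 3 (-0.01, 0.03 and -0.41 in pairs 2 to 4). On the positive side stood Hal, the histidine ammonia-lyase (0.14, 0.48, 0.21 and -0.08; unadjusted p in limma's fit 0.0443), and Agxt, which detoxifies glyoxylate (0.18, 0.48, 0.12 and -0.14).

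**Figure D3:**
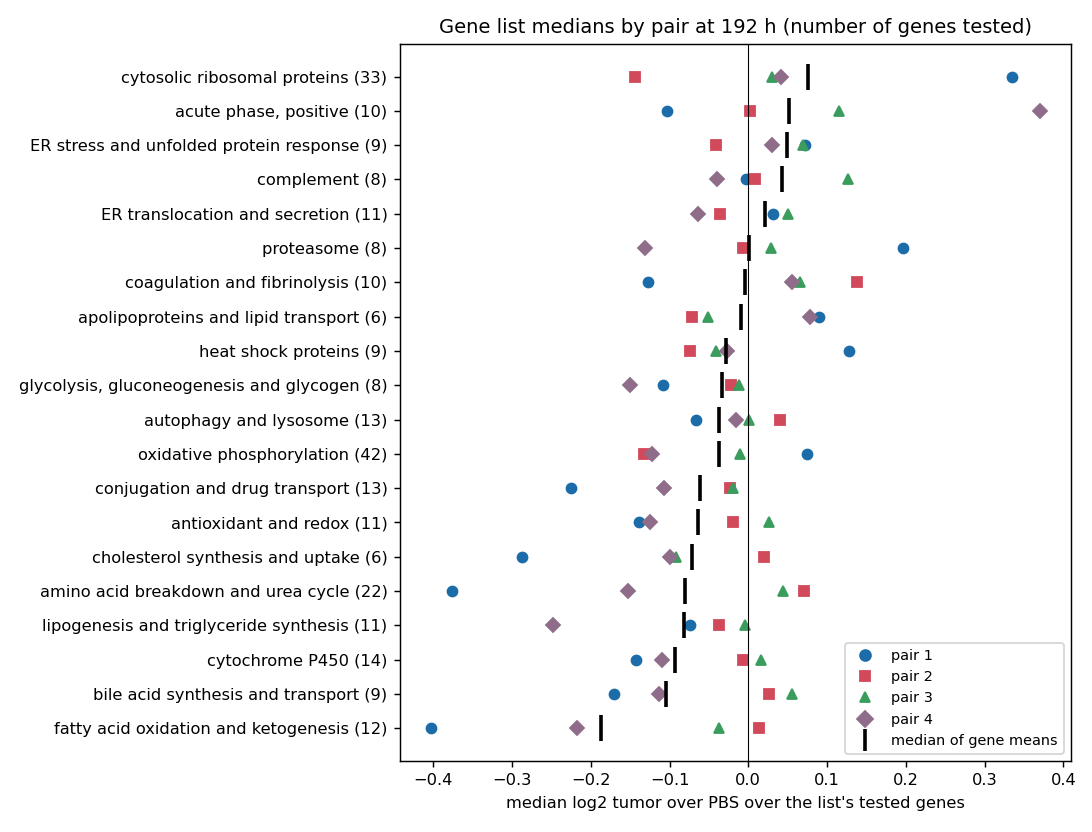
Median log2 ratio of tumor over PBS at 192 h over the tested genes of each list (horizontal axis, number of genes in brackets), with a symbol for each pair and a black bar for the median of the gene means. Pairs 1 and 4 lie to the left of pairs 2 and 3 in fatty acid oxidation and amino acid breakdown, and ribosomal protein genes run from -0.14 in pair 2 to 0.34 in pair 1.

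Cytosolic ribosomal protein genes showed how far single pairs could move together. Of 33 tested genes 26 had a positive mean (median 0.08), and 0 had an unadjusted p under 0.05. In pair 1, 30 of 33 were positive with a median of 0.34, and in pair 2, 31 of 32 were negative with a median of -0.14. Pairs 3 and 4 had medians of 0.03 and 0.04. Rpl13a of the large subunit, with the highest mean (0.23 ± 0.16, SE, n = 3 pairs), was at 0.80, -0.19 and 0.07 in pairs 1 to 3, and Rpl24 at 0.57, -0.10 and 0.09. Of all 33 genes, 0 were positive in every measured pair and 1 was negative in every measured pair. Without pair 1 the list median was -0.03. Ribosomal genes often have processed pseudogenes, so that a probe may read more than its own gene.

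Oxidative phosphorylation, the mitochondrial respiratory chain and ATP synthase, had 35 of 42 negative means, with a median of -0.04. The list medians were 0.07, -0.13, -0.01 and -0.12 in pairs 1 to 4, with 32 of 39 members negative in pair 2 and 30 of 36 in pair 4. Without pair 1 the median was -0.09. Atp5j2, a membrane subunit of ATP synthase, was at -0.31, -0.06 and -0.34 in pairs 2 to 4, with a mean of -0.24 ± 0.07 (SE, n = 3 pairs). Its single array of pair 1, left out of the mean, read 0.67 in the opposite direction, and the mean of Atp5j2 became positive (0.10) with median centring of the scans. Cox8a, a subunit of cytochrome c oxidase, was at -0.44, -0.09 and -0.15 in pairs 1 to 3. Ndufs4 of complex I had -0.16, -0.02 and -0.44 in pairs 2 to 4, and Cox7b -0.67 in pair 4 alone. On the positive side Cox4i1 (0.55, -0.31, -0.03 and 0.08) and Atp5k (0.80, -0.21, -0.15 and -0.16) rested on pair 1.

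The chaperones and sensors that answer to protein load in the endoplasmic reticulum (ER) had 7 of 9 positive means with a median of 0.05. The list medians were 0.07, -0.04, 0.07 and 0.03, and 0 members had an unadjusted p under 0.05. Calr, the lectin chaperone calreticulin, was at 0.20, -0.04, 0.05 and 0.27, and its membrane-bound relative Canx at 0.06, 0.35 and -0.05 in pairs 2 to 4. Dnajc3, a co-chaperone that inhibits eIF2α kinases, was positive in the 3 pairs that measured it (0.21, 0.08 and 0.03). Hsp90b1, GRP94, was at -0.91 in pair 2 and at 0.01 and 0.05 in pairs 1 and 3, and its single array of pair 4 read 0.62. Of 11 genes of ER translocation and secretion 6 were positive (median 0.02). Spcs2, a subunit of signal peptidase, was at 0.39, 0.04 and 0.16 in pairs 1 to 3, while Mcfd2, a cargo receptor partner for clotting factors, was negative in its 3 pairs (-0.22, -0.12 and -0.20).

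The remaining lists were smaller or closer to 0. Antioxidant and redox genes had 8 of 11 negative means (median -0.06), led by Srxn1, sulfiredoxin (-0.76, 0.17, -0.07 and -0.20). Glycolysis, gluconeogenesis and glycogen genes had 5 of 8 negative (median -0.03). Pck1, the PEP carboxykinase of gluconeogenesis, varied widely between pairs, at -0.12, 0.84, -0.60 and 0.25, and G6pc was at 0.41, -0.01 and -0.29 in pairs 2 to 4. Autophagy and lysosome genes had 8 of 13 negative (median -0.04, and 0.02 without pair 1), with Bnip3, a mitophagy receptor, at -0.48, -0.06 and -0.11 in pairs 1, 3 and 4 and Sqstm1, the autophagy adaptor p62, at -0.71 in pair 1 against 0.01 to 0.14 elsewhere. Heat shock proteins had 6 of 9 negative (median -0.03), led by the small heat shock protein Hspb8 (-0.65, -0.27 and 0.31 in pairs 1, 3 and 4). In the proteasome 4 of 8 were positive and 4 negative (median 0.001). The growth hormone and IGF axis had 3 tested genes, all with negative means: Igfbp7 (-0.42, 0.13 and -0.41 in pairs 1, 2 and 4), Elovl3, and the male-specific steroid dehydrogenase Hsd3b5 (-0.17, -0.43, 0.45 and -0.40). For interferon response only Ifi27 was tested, at -0.05, and for iron and heme only Cp and Alad (0.03).

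Outside these lists, the genes positive in every measured pair with the smallest p included Actb, cytoplasmic beta-actin, at 0.26, 0.21 and 0.08 in pairs 2 to 4 (mean 0.18 ± 0.05, SE, n = 3 pairs). The other 2 Actb probes had means of 0.06 and 0.12. The sialyltransferase St3gal1 was at 0.24, 0.17 and 0.11 and the semaphorin Sema4a at 0.08, 0.16 and 0.22 in the same pairs. Anp32a, a nuclear phosphoprotein, was at 0.25, 0.06, 0.17 and 0.08, and Ddb1, the adaptor of CUL4 ubiquitin ligases, at 0.11, 0.20, 0.08 and 0.05. Both thus had 4 positive pair means of small size. For Ddb1 these came from the arrays with tumor RNA in Cy5 (0.21, 0.43, 0.17 and 0.16). The dye swaps were at 0.01, -0.03, -0.01 and -0.06. Plin4, a coat protein of lipid droplets, rested on pair 3 (0.55, against 0.01 and 0.15 in pairs 2 and 4), and within it on the array with tumor RNA in Cy3 (1.16, against -0.07). Hgsnat, a lysosomal acetyltransferase, and Upk2, a uroplakin known from the bladder, had means of 0.14 and 0.13.

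Negative in every measured pair were, among others, Mrps24 of the mitochondrial ribosome (-0.43, -0.07 and -0.39 in pairs 2 to 4) and Btn1a1, a butyrophilin known from milk fat (-0.57, -0.18, -0.27 and -0.17). The single array of Mrps24 in pair 1 read 0.51, and from the scans the mean of Mrps24 was 0.07, of opposite sign. A second Btn1a1 probe had a mean of -0.08, against -0.30 for the first. In pairs 3 and 4 the first probe had opposed orientations, -0.69 and -0.41 in Cy5 against 0.15 and 0.07 in Cy3. From the scans its pairs were at -0.52, -0.003, -0.06 and -0.003. Urah, an enzyme of urate breakdown, was at -0.80 in pair 1 and at -0.01, -0.09 and -0.19 in the others. S100a10, the light chain partner of annexin A2, had -0.05, -0.39 and -0.32 in pairs 1, 2 and 4, and the monocarboxylate carrier Slc16a11 -0.25, -0.08 and -0.19 in pairs 2 to 4. For Slc16a11 only the arrays with tumor RNA in Cy5 were negative (-0.55, -0.27 and -0.38), against 0.05, 0.11 and 0.0002 in the dye swaps. The potassium channel Kcnh7 was even over the pairs (-0.08, -0.18, -0.09 and -0.16), and the microtubule-binding protein Clip3 was not (-0.23, -0.01 and -0.52 in pairs 1 to 3).

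**Figure D4:**
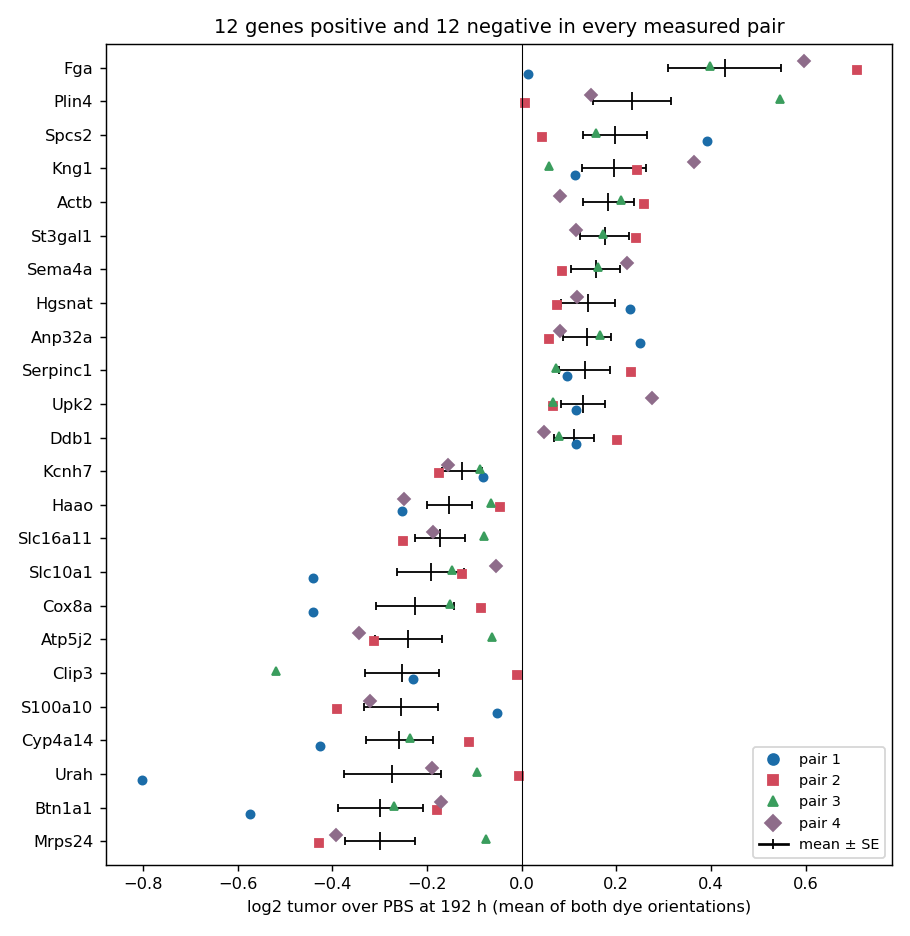
Log2 ratios of tumor over PBS at 192 h (horizontal axis) for the 12 positive and 12 negative genes of smallest p with 1 sign in every measured pair, with a symbol for each pair and a black mark for the mean ± SE of limma's fit. Fga has the highest mean (0.43) with pair 1 at 0.01, and Urah is the negative gene with the lowest single value, -0.80 in pair 1.

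Markers of other cell types had list medians between 0.656 and 1.28 times background. Robo4, Dcn, Cd68 and Cxcr2, all tested, were at 2.87, 2.81, 2.63 and 2.51 times background, near the 2.61 of the hepatocyte marker Hnf4a. Brighter still were Timp1, a stellate cell and fibroblast marker without a value on any of the 8 arrays (25.9), the neutrophil marker Lcn2 (7.54), the muscle gene Myh4 (6.98) and the erythroid gene Car1 (4.60), of which only Car1 was tested. Of 17 Kupffer cell and macrophage markers on the array 6 were tested, 5 with a positive mean (median 0.02). Clec4f, which marks Kupffer cells, was at 0.46, -0.28, 0.05 and -0.17, and Cd68 at 0.27, -0.10, -0.23 and 0.69, without a common direction. S100a8, a neutrophil protein, was at 0.68, -0.47, 0.21 and 0.21, so pairs 1 and 2 were opposed as in the ribosomal list, and Cxcr2 was at -0.17, -0.05 and 0.12 in pairs 2 to 4. The lymphocyte markers Cd8b1 and Cd52 had means of 0.02 and 0.03, and the orientations of Cd52 were strongly opposed (-1.26 and 1.07 in pair 2). The endothelial markers Gpr182, Eng, Robo4 and Clec4g means between -0.04 and 0.03, and the stellate cell and fibroblast markers Ecm1 and Dcn means of -0.03 and 0.00. Sox9, of bile duct cells, had 0.06, 0.33 and 0.18 in pairs 2 to 4 and -0.06 in pair 1. Erythroid Car1 and Gata1 were at -0.06 and 0.00, the muscle gene Pvalb at -0.14, the pancreas genes Cela1 and Cel at -0.16 and 0.10, and the cell cycle gene Kif20a at 0.03. No adipose marker was tested. The part of these cells in the values above was not tested.

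The design also allows the 192 h ratios to be set against the earlier times, over arrays of the same kind and in the same fit. Against 18 h, 0 of 1999 probes (0%) passed the adjusted threshold and 74 (3.7%) had an unadjusted p under 0.05, and the smallest adjusted p was 0.999. Against 72 h, 0 of 1986 (0%) passed, 66 (3.32%) had an unadjusted p under 0.05, and the smallest adjusted p was 0.196. That smallest value belonged to Actb. Its ratio was 0.26, 0.21 and 0.08 in pairs 2 to 4 at 192 h and -0.25, -0.13, -0.33 and -0.27 at 72 h, and these pairs did not overlap between the times. The single array of pair 1 at 192 h, left out of the mean, read -0.22, within the 72 h range, and the other 2 Actb probes were at -0.22 and -0.11 in that pair. The difference was 0.43 ± 0.07 (SE), and the other 2 probes gave 0.28 ± 0.16 and 0.33 ± 0.13.

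Against 18 h the lowest difference among named genes of smallest p was that of Atp5j2, at -0.48 ± 0.10, from 0.14, 0.41 and 0.16 in pairs 1, 3 and 4 at 18 h. At 72 h this gene was also positive (0.12, 0.24, 0.17 and 0.04), so its mean at 192 h had the opposite sign to both earlier times. That mean left out the single array of pair 1 at 192 h, which read 0.67. From the scans, pairs 1 to 4 of Atp5j2 at 192 h were split, at 0.77, -0.57, 0.12 and -0.61. Thrsp was positive at 18 h (0.27, 0.15 and 0.18 in pairs 2 to 4) and differed by -0.39 ± 0.11. From the scans its 192 h pairs were split too, at 0.64, -0.84, 0.23 and -1.20. Gclm, the modifier subunit of glutathione synthesis, was at -0.45, -0.54 and -0.08 in pairs 1, 3 and 4 at 18 h and at 0.20, 0.06 and 0.11 in pairs 2 to 4 at 192 h, a difference of 0.48 ± 0.13. Its single array of pair 1 at 192 h, left out of the mean, read -0.40. Cpn2, a carboxypeptidase N subunit in plasma, differed by 0.30 ± 0.08 from 18 h and 0.26 ± 0.08 from 72 h, and its 192 h mean of 0.08 became negative (-0.10) from the scans. Ugdh, which makes UDP-glucuronate, differed by 0.46 ± 0.14 from 18 h, with a 192 h mean of 0.03. Serpinc1, S100a10 and the calcium pump Atp2a2 were also among the 5 of smallest p in a direction (0.27, -0.35 and 0.25). The phosphate carrier Slc20a2 and Ddb1 led with Actb against 72 h (0.23 and 0.19). The 192 h mean of Slc20a2, 0.08, also became negative (-0.08) from the scans. The metalloproteinase Mmp19 and the pseudogene Hsp25-ps1 (-0.41 and -0.36) had values in only 2 pairs at 72 h.

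Fga at 192 h (mean 0.43) was above its means at 18 h (0.14) and 72 h (-0.03), but at 18 h pair 3 reached 0.66 and overlapped the 192 h pairs. Slc10a1 had negative means at all 3 times, -0.13, -0.19 and -0.19 from 18 to 192 h. The fatty acid oxidation list had medians of -0.06 at 18 h and -0.10 at 72 h, against -0.19 at 192 h. Its pair medians overlapped, from -0.13 to -0.01 at 18 h, -0.23 to 0.01 at 72 h and -0.40 to 0.01 at 192 h. Without pair 1 its 192 h median was -0.08. Several other lists that leaned negative had a median lower at an earlier time. At 18, 72 and 192 h, lipogenesis had -0.06, -0.11 and -0.08, and conjugation and drug transport -0.04, -0.11 and -0.06. Amino acid breakdown had -0.10, -0.05 and -0.08, and antioxidant genes -0.11, -0.10 and -0.06. Lists lowest at 192 h included cytochrome P450, with -0.05, -0.08 and -0.09. The positive acute phase list had 0.06, -0.05 and 0.05. These lists were chosen with results of these arrays known, and each set of medians is a description.

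**Figure D5:**
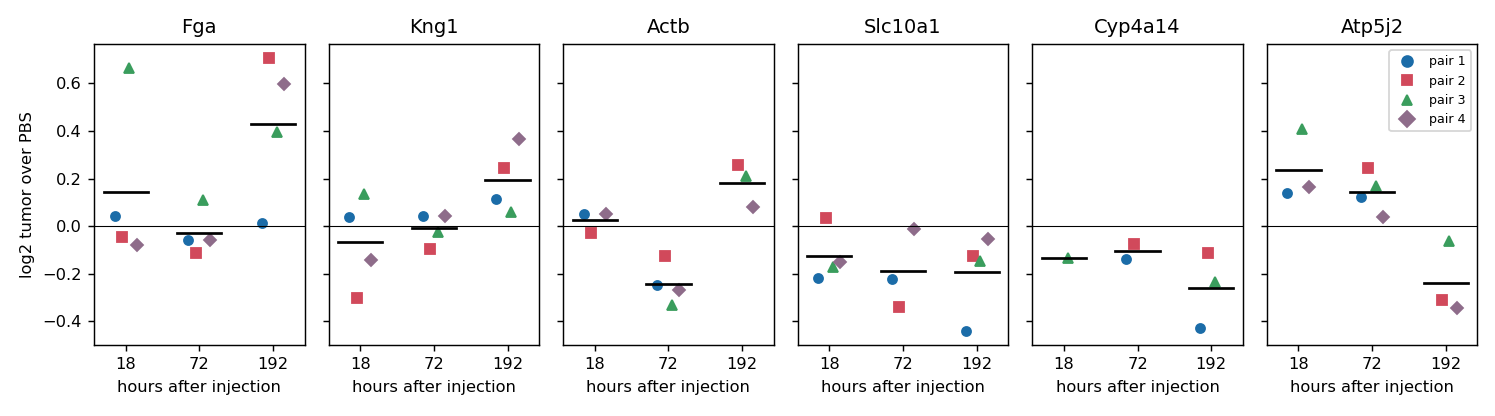
Log2 ratio of tumor over PBS (vertical axis) by hours after injection for 6 genes, with a symbol for each pair of a time and a black bar for the mean; the pairs of different times are different samples. The plotted Actb probe lies above 0 at 192 h in the 3 pairs with both orientations (the single array of pair 1, at -0.22, is not drawn) and below 0 at 72 h. Atp5j2 is positive at 18 and 72 h and negative at 192 h in the 3 pairs with both orientations (the single array of pair 1, at 0.67, is not drawn).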

How the data were processed

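Liver RNA of tumor-bearing and PBS mice was compared on 2-colour arrays with dye swaps. The main values are log2 ratios from the authors' deposited value table. Its making is not given in the sources used here; set against print-tip loess of total scan intensities, r was 0.768 to 0.954 and the ratio of SDs 0.911 to 1.12 at bright spots of the 192 h arrays. With background-subtracted intensities r was 0.776 to 0.935, higher on 7 of 8 arrays, and the ratio of SDs over all spots 0.443 to 0.709. The method is therefore not settled; if background was not subtracted, folds at dim spots are understated. Array medians at 192 h were -0.033 to 0.004. Per the file headers, the 3 scans of an array hold background-corrected spot intensity, background intensity and a saturation factor, a fraction equal to 1 without saturated pixels. They gave the alternatives, by loess (span 0.3), normexp (offset 50), median centring or print-tip loess (span 0.4). At 192 h, 7.36% to 20.3% of measured spots were saturated in the brightest scan.

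Arrays were grouped by the labels. The mean of both orientations of a pair was fitted with limma 3.58.1 (lmFit, eBayes; R 4.3.3) over all 12 pairs, with a coefficient for each time. P-values are two-sided, adjusted by Benjamini-Hochberg, with a threshold of 0.05; differences from another time needed 2 pairs there. The fit was tested on simulated data. Of 10080 probes 9066 had 1 symbol in the platform's annotation, 12 several and 1002 none listed; 8977 Entrez identifiers matched RefSeq (GRCm38.p6). The 180 tested probes without a single symbol are not named. The brightest probe stood for a gene in a list; of 17 genes with several tested probes 4 had probes of opposite sign. Named were the 12 positive and 12 negative genes of smallest p with 1 sign in every measured pair, 4 members of a list furthest from 0 in the direction of its median and 2 in the other, the measured markers, and 5 genes in a direction between times. Other genes of a list, such as Etfdh, were named after their values were seen. Members, lists and tests were chosen with earlier results of these data known. Figures were drawn with matplotlib 3.10.9. Precision is limited by how few arrays there are. Of 12 comparisons of same-numbered pairs between times, 5 had deviations correlated above 0.1 (range -0.30 to 0.48). The median was 0.05, against 0.02 for pairs of different number, and 5 of 12 pairs were closest to a pair of their own number. This does not settle whether the numbers pair the samples, and the main fit did not pair them.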

Additional observations from a re-analysis of the deposited data

Results flagged for a closer look

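Among 98 sets of 4 pair values, 6 held a pair far from the other 3 by Dixon's criterion. In sets not chosen by their values chance gives about 1 in 20, near the share found here. Flagged genes such as Ahcy, Elovl3 and Atp5k were named for lying furthest from 0 in their lists. That rate therefore need not hold for them, and the flags are a description. Of the 6 flagged, 4 were in pair 1: Serpind1 at -0.45, Ahcy at -0.999, Atp5k at 0.80 and Sqstm1 at -0.71. Elovl3 was at -1.03 in pair 4, and Rpl26 at -0.45 in pair 2.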

How the results depend on the processing

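With 0 probes called, the count stayed at 0 under all 21 alternatives at 192 h and all 7 for each difference between times, with smallest adjusted p-values from limma of 0.278 to 1.00, 0.252 to 1.00 and 0.149 to 0.999. At 192 h, 61 probes had an unadjusted p under 0.05. This became 112 with median centring of the scans (2725 probes tested), 26 with probes measured in all 4 pairs (773 tested), 103 with at least 2 pairs (3185 tested), 20 with the 192 h pairs alone, and 201 with single arrays, a dye term and the pair as a random block (5583 tested). Leaving out a pair gave 64 to 127, the highest without pair 4, with 104 without pair 2 and 119 without pair 3. For the differences, print-tip loess of total scan intensities, an alternative chosen after seeing the data, gave 118 against 18 h and 116 against 72 h. Leaving out a 192 h pair gave 53 to 139 and 57 to 110, both highest without pair 1.

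The replicate number as a block gave 78 probes at 192 h, 56 against 18 h and 62 against 72 h, and 0 calls. The split of replicates 1 and 2 from 3 and 4 as a term gave 61 at 192 h, and each side alone 48.

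Signs turned for Upk2 (-0.0088) and Atp5j2 (0.10) with median centring of the scans, and for Serpinc1 with normexp (-0.043), print-tip loess (-0.0795) and print-tip loess of total intensities (-0.11). Mrps24 turned with loess (0.0718), print-tip loess (0.13) and print-tip loess of total intensities (0.0796). The other 467 values of the 24 genes kept their sign. Many of these were fixed in advance: the genes were chosen for 1 sign in every measured pair, so leaving out or reweighting pairs could not turn them. All 8 turns came from ratios recomputed from the scans. The cause was not tested. Medians of the fatty acid oxidation, amino acid, lipogenesis, P450 and oxidative phosphorylation lists kept their sign under all 21 alternatives. The alternatives nearest 0 were -0.003 for amino acids and -0.007 for oxidative phosphorylation. No alternative left out pairs 1 and 4 together, so a kept sign does not show independence from both. In pairs 2 and 3 the amino acid medians were positive, at 0.07 and 0.04. Those of fatty acid oxidation were 0.01 and -0.04, of P450 -0.01 and 0.02, and of lipogenesis -0.04 and -0.004. Oxidative phosphorylation had -0.13 and -0.01 there. The positive acute phase list turned under 3, coagulation under 9, autophagy under 3, bile acid under 1 and the ribosomal list without pair 1. The proteasome list turned under 11, apolipoproteins and heat shock proteins under 4 each, ER translocation under 3 and complement under 2. No table value lacked a measured spot, so that alternative equals the main setting. Dim spots limit these ratios: the median corrected signal of a tested probe was 1.69 times background.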
